A study of Mus musculus with 6 samples.

Results

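The 32 genes described here carry out and control the unfolded protein response and protein folding in the endoplasmic reticulum (ER). They were taken by name from a list of sensors, transcription factors, ER chaperones, degradation factors and targets of the PERK branch. No measured value was in the rule, but the members were chosen with earlier results of these data known. Shares of members set beside shares of all genes are therefore a description and not a test. The members are 32 of the 27761 gene entries of the deposited expression table. All 32 had an entry, and all 32 passed the filter on low expression that left 12953 genes for testing. The samples were 6 poly(A) RNA-seq libraries of mouse bone marrow cells positive for B220, a surface form of CD45 found on B-lineage cells from the progenitor stage onward. Of these, 3 libraries were labelled wild type (WT) and 3 PELI2 knockout, with a sample title that marks the knockout as CKO. No treatment is named in the labels, and the strain, the age of the mice, the deleted exons and any Cre driver are not given in the sources used here. Nothing in the labels says whether the 3 replicates of a group were separate animals, so p-values measure only the spread between these libraries, which may be technical. Levels are in FPKM, fragments mapped to a transcript scaled by its length and by the size of the library, and differences are in log2(FPKM + 1), PELI2 knockout minus WT.

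When unfolded proteins gather in the ER, 3 sensors in its membrane respond. IRE1 (gene Ern1) splices the mRNA of the transcription factor XBP1, ATF6 is cut in the Golgi to release a transcription factor, and PERK (gene Eif2ak3) phosphorylates the translation factor eIF2, which lowers general translation while raising that of ATF4. The first and second of these branches raise chaperones, folding enzymes and the machinery that sends misfolded proteins to the proteasome, while ATF4 raises genes of amino acid supply, redox balance and stress-induced cell death. In the B lineage XBP1 is best known for its need in plasma cells, which secrete large amounts of antibody, and IRE1 has also been studied in earlier B-cell stages. A value per gene does not separate the spliced from the unspliced form of Xbp1.

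Some of the members hold short promoter elements in common. ATF6 and XBP1 act through the ER stress response element (ERSE), which reads CCAAT, 9 bases of any kind and CCACG, and through the ERSE-II, which reads ATTGG, 1 base and CCACG. The UPR element TGACGTGG is a further site for the same factors, and ATF4 acts with C/EBP proteins at elements with the core TGATGNAA. RefSeq promoter windows on build GRCm38.p6, from 250 bases before to 50 bases after each start, were found for 28 of the 32 members, and not for Atf6, Hyou1, Hspa13 and Manf. They were searched on both strands, and overlapping matches to different elements were all counted. The ERSE matches are shown because chaperones of different families and 1 degradation gene hold them. Each is written 5' to 3' on its own strand, with the fixed bases in capitals:
Hspa5: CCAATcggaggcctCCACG
Hsp90b1, upstream copy: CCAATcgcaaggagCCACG
Hsp90b1, downstream copy: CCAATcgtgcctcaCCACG
Calr: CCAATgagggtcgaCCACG
Canx: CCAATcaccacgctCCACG
Creld2: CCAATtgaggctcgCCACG
Dnajc3: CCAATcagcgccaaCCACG
Pdia6: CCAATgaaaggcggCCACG
Syvn1: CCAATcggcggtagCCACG

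The ERSE was present in 8 of the 28 members with a window, which is 28.6%, against 37 of all 27025 genes with a window, which is 0.137%. Genes raised by ATF6, XBP1 and ATF4 are in the list by its rule. The shares of elements given here therefore describe the list and are not a test of it. All distances here are to the RefSeq start. In Hspa5 the upstream end of the ERSE lay 65 bases before the start, in Syvn1 44, in Pdia6 98, in Dnajc3 105 and in Canx 145. By the gene position in the deposited table, which begins farther upstream, the ERSE of Hspa5 lies inside the transcript. The elements of Calr and Creld2 lay on the opposite strand with their upstream ends 162 and 126 bases before the start. Hsp90b1 had 1 copy on its own strand 212 bases before the start and 1 on the opposite strand 107 bases before it. The ERSE-II was found in 2 members (7.14%, against 0.0444% of all genes). These were Herpud1, 52 bases before its start, and Dnajb11, inside the transcript 8 bases after its start. The exact UPR element was found in 0 of the 28 members, against 0.714% of all genes, and these letters only were searched for. The ATF4 core was found in 4 members (14.3%, against 4.51% of all genes). The elements below are the ERSE-II and ATF4 core matches, again with fixed bases in capitals, and those of Chac1, Herpud1 (the ATF4 core) and Trib3 lie on the opposite strand:
Herpud1, ERSE-II: ATTGGgCCACG
Dnajb11, ERSE-II: ATTGGcCCACG
Asns, ATF4 core: TGATGaAA
Chac1, ATF4 core: TGATGcAA
Herpud1, ATF4 core: TGATGcAA
Trib3, ATF4 core: TGATGtAA

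The 250 bases before the start are given for 4 members that the results below turn on: the chaperone genes Hspa5 and Calr, the ubiquitin ligase gene Syvn1, whose values lay the other way, and the ATF4 target Asns. Capitals mark the fixed bases of the elements above, and where an element lies on the opposite strand the capitals show its complement. Hspa5 is at chr2:34771840-34772089 on the plus strand, Calr at chr8:84846932-84847181 on the minus strand, Syvn1 at chr19:6046326-6046575 on the plus strand and Asns at chr6:7693210-7693459 on the minus strand, all RefSeq positions on GRCm38.p6:
Hspa5: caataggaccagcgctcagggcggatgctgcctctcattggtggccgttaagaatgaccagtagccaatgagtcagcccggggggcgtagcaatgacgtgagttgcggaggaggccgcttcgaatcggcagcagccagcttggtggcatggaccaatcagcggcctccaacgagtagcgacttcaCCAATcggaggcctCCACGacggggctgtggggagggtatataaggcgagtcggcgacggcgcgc
Calr: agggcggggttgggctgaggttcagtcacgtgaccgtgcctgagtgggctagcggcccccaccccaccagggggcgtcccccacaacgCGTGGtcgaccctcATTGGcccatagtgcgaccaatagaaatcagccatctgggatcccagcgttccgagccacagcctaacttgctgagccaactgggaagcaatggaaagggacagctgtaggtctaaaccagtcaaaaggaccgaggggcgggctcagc
Syvn1: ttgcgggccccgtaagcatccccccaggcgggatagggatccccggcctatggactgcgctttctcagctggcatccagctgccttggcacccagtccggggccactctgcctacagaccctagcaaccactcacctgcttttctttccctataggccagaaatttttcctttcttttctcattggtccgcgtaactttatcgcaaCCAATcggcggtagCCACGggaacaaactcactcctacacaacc
Asns: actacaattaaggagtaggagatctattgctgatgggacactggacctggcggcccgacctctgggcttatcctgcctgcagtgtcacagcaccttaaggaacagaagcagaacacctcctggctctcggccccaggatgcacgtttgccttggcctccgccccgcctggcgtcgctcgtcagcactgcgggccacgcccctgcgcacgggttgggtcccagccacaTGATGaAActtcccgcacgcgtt

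A few facts of the whole series bear on these genes. The libraries held between 16600000 and 18100000 reads, read back from the steps between low FPKM values. The deleted gene itself did not separate the groups: Peli2 (ENSMUSG00000021846), an E3 ubiquitin ligase of the Pellino family, was listed at 2.03, 2.54 and 1.99 FPKM in WT, and its knockout-labelled libraries held 3.07, 2.70 and 2.47 FPKM (difference 0.556 FPKM, two-sided exact permutation test p = 0.2, where 0.1 is the smallest p that 3 against 3 can give). A gene-level value says nothing about which exons are present, and every direction given here is therefore between libraries as labelled. B-cell markers led by Cd79a were abundant in all 6 libraries, at a summed 1864 to 2304 FPKM in WT and 1600.1 to 1644 FPKM in the knockout-labelled libraries. Markers of other cells were also abundant: 16 granulocyte genes summed to 7849 to 10872 FPKM in WT and 12320 to 14541 FPKM in the knockout-labelled libraries, led by S100a9 at 3439 ± 600.2 against 4546 ± 221 FPKM (SD, n = 3 each). Of the 16 granulocyte markers, 16 had the higher mean in the knockout-labelled libraries and 9 of 10 B-cell markers had the lower one. WT replicate 1 had the lowest granulocyte list mean of the 6 libraries, and knockout replicate 3 had a plasma cell list mean inside the WT range. In bulk RNA, fewer cells of a type and less RNA per cell cannot be told apart.

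No member passed the test. In limma, with Benjamini-Hochberg adjustment over all 12953 genes, 0 of the 32 had an adjusted p under 0.05, and 3 of all genes tested did (0.0232%, all 3 higher in the knockout-labelled libraries). The lowest adjusted p among the members was 0.150, for Xbp1. The group mean was higher in the knockout-labelled libraries for 28 of the 32 members, against 46.4% of all genes tested. At an unadjusted p under 0.05 stood 16 members with a higher mean and 2 with a lower one, where 9.2% of all genes tested were higher and 8.88% lower by that rule. All 3 knockout-labelled libraries lay above all 3 WT libraries for 18 members (11.5% of all genes tested) and below them for 2 (14.3%). The median difference of the members was 0.14, against -0.01 over all genes tested, and single members ran from -0.30 to 1.21. With every library rescaled to a common FPKM total, which also let 16175 genes through the filter, an unadjusted p under 0.05 was reached by 7 members on the higher side and, with Dnajb9 added, 3 on the lower side, where 20.2% of all genes tested reached it, against 18.1% without rescaling. Of the 32 members 22 then had a higher mean, while the median difference over all genes tested was -0.08. Neither the share of all genes with a higher mean nor the split of the 20.2% by direction was computed under that scaling. Rescaling to the mean library total with the same 12953 genes, a setting chosen after seeing the data, also gave 7, 3 and 22. There 23.6% of all genes tested had an unadjusted p under 0.05. The means of the granulocyte and plasma cell marker lists were also entered as covariates. With the granulocyte list 5.43% of all genes tested had an unadjusted p under 0.05. Of the 18 members under 0.05 without a covariate 1 stayed there, Ern1 (difference 0.38), while Atf6b (0.25) and Herpud1 (0.60) came under it, all 3 on the higher side. With the plasma cell list 0 members and 6.6% of all genes tested were under 0.05. Cell makeup and genotype label cannot be told apart in these 6 libraries, and a difference with a covariate does not divide a member's difference between them.

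**Figure D1:**
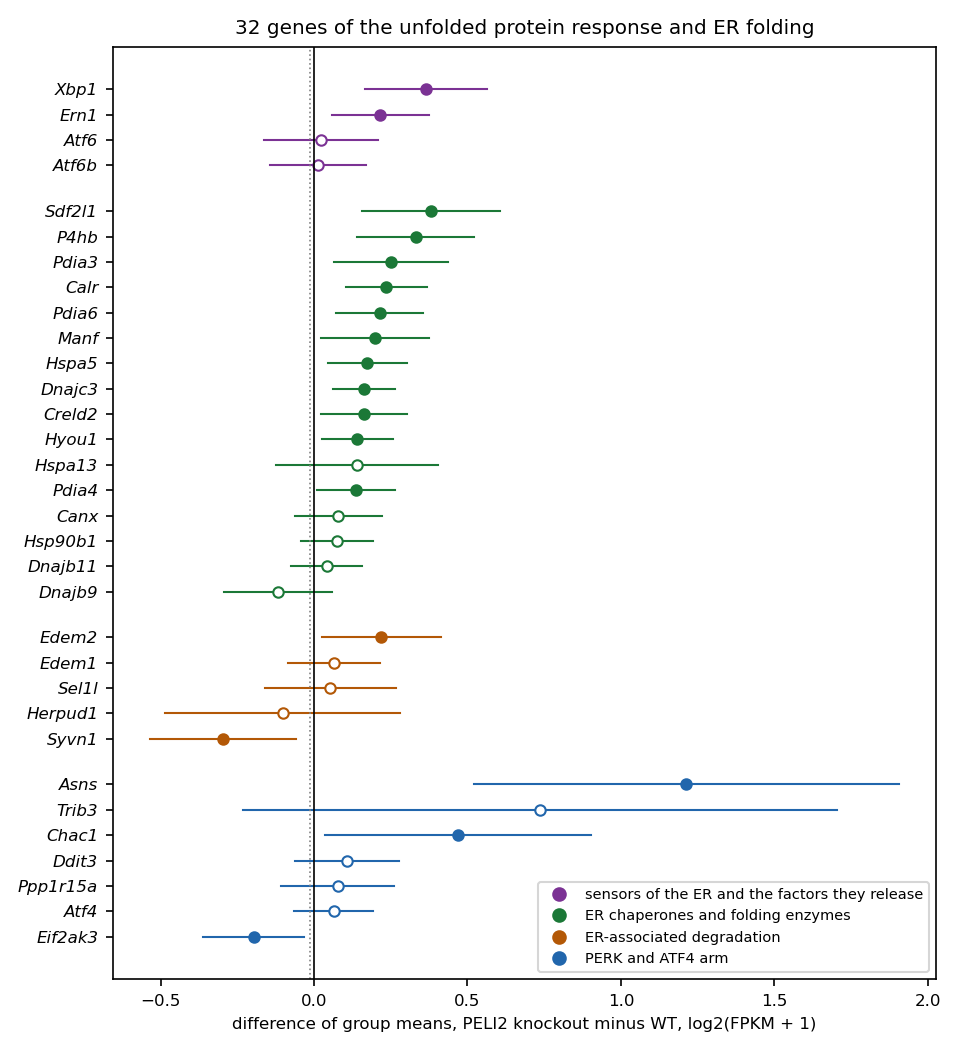
Differences of the 32 members between the groups, in log2(FPKM + 1), PELI2 knockout minus WT, ordered by role. Points are the differences, lines their 95% confidence intervals, filled points have an unadjusted p under 0.05 and the dotted line is the median of all genes tested; 28 points lie right of 0, Asns lies farthest right at 1.21 and Syvn1 farthest left at -0.30.

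Among the sensors and the factors they release, both genes of the IRE1 branch stood higher in every knockout-labelled library, while the 2 ATF6 genes did not differ beyond their spread. Xbp1 (ENSMUSG00000020484, chromosome 11), the transcription factor made by IRE1 splicing, stood at 50.6, 56.2 and 60.4 FPKM in WT and at 77.7, 70.9 and 67.4 FPKM in the knockout-labelled libraries. The groups did not overlap, and the means of 55.7 ± 4.89 and 72.0 ± 5.25 FPKM (SD, n = 3 each) differed 1.29-fold, with a log2 difference of 0.37 (SE 0.08, unadjusted p = 0.00360, adjusted p = 0.150). The Xbp1 difference was 0.20 with the granulocyte and 0.21 with the plasma cell covariate. Ern1, which encodes IRE1 itself, stood at 8.42, 8.10 and 7.65 FPKM in WT and at 10.3, 9.14 and 9.12 FPKM in the knockout-labelled libraries. Here too the groups did not overlap, with a difference of 0.22 (SE 0.07, adjusted p = 0.200). Atf6, the sensor cut in the Golgi, stood at 14.9, 13.9 and 12.6 FPKM against 14.7, 14.5 and 12.9 FPKM, values that interleave (difference 0.02, 95% interval -0.16 to 0.21). Its relative Atf6b stood at 43.7 ± 2.94 against 44.1 ± 2.13 FPKM (SD, n = 3 each, difference 0.01, 95% interval -0.14 to 0.17). Under the common total Atf6 moved to -0.05 and Atf6b to -0.06. The 6 measured genes of the protease that cuts ATF6 and of the factors related to it had a median difference of 0.04. None of them reached an unadjusted p under 0.05, and the lowest p values were those of Mbtps1, the site-1 protease, at 16.6 ± 0.871 against 15.3 ± 1.13 FPKM, and of the factors Creb3 and Creb3l2 (adjusted p between 0.426 and 0.439 for the 3).

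The 16 ER chaperones and folding enzymes lay mostly to 1 side. The knockout-labelled libraries had the higher mean for 15 of the 16 and lay entirely above WT for 13, of which 11 had an unadjusted p under 0.05. Of all genes tested, 46.4% had a higher mean, 11.5% lay entirely above WT and 9.2% were higher at an unadjusted p under 0.05. The median difference of the chaperones was 0.16, against -0.01 over all genes tested. Under the common total the chaperone median was 0.09, against -0.08 over the 16175 genes tested there. Hspa5, which encodes BiP, the Hsp70 of the ER that also holds the sensors inactive, stood at 168, 169 and 181 FPKM in WT and at 196, 195 and 192 FPKM in the knockout-labelled libraries. All 3 of the latter were higher, and they were closer to each other than the WT libraries were (172 ± 7.21 against 194 ± 1.89 FPKM, SD, n = 3 each), with a difference of 0.17 (SE 0.05, adjusted p = 0.205). The BiP partners were lower in level. Dnajc3, a J-domain cochaperone with 1 ERSE, stood at 20.5, 21.2 and 21.2 FPKM in WT against 24.1, 23.3 and 23.4 FPKM (difference 0.16, adjusted p = 0.169). Hyou1, a large Hsp70 relative that exchanges nucleotide on BiP, stood at 25.1, 24.4 and 24.3 FPKM in WT against 28.7, 26.5 and 26.6 FPKM (difference 0.14, adjusted p = 0.226). In both, the lowest knockout-labelled library lay above the highest WT library.

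Sdf2l1, a partner of the BiP cycle, had the largest difference of the chaperone role. It stood at 28.6, 26.6 and 31.6 FPKM in WT and at 42.5, 37.1 and 34.6 FPKM in the knockout-labelled libraries, with means of 28.9 ± 2.52 and 38.1 ± 4.06 FPKM (SD, n = 3 each, 1.31-fold), a difference of 0.38 (SE 0.09, adjusted p = 0.160) and no overlap. Manf, a secreted factor that stays in the ER bound to BiP, stood at 22.5, 20.0 and 24.1 FPKM in WT against 25.6, 26.5 and 24.5 FPKM, so that its highest WT and lowest knockout-labelled libraries nearly met (difference 0.20, adjusted p = 0.243). Creld2, a disulfide-related ER protein, stood at 28.5, 29.9 and 32.2 FPKM in WT against 34.5, 34.5 and 32.5 FPKM, and there too the nearest libraries of the groups almost met (difference 0.16, adjusted p = 0.236). Manf overlaps Dcaf1 on the opposite strand and Rbm15b on its own strand, which stood at 10.2 and 17.1 FPKM in WT, and how reads shared between overlapping genes were assigned is not given in the sources used here.

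The lectin chaperones and the disulfide isomerases that work with them lay on the same side. Calr, calreticulin, which binds glycoproteins and calcium, stood at 165, 171 and 179 FPKM in WT and at 206, 197 and 203 FPKM in the knockout-labelled libraries. The groups were well apart (172 ± 7.13 against 202 ± 4.50 FPKM, SD, n = 3 each, 1.18-fold), with a difference of 0.24 (SE 0.06, adjusted p = 0.153). P4hb, protein disulfide isomerase, stood at 85.6, 101 and 99.1 FPKM in WT and at 122, 125 and 113 FPKM in the knockout-labelled libraries, 1.26-fold higher in the mean, with a difference of 0.33 (SE 0.08, adjusted p = 0.157). Pdia3, the isomerase that partners calreticulin and calnexin, stood at 72.4, 82.0 and 87.9 FPKM in WT and at 97.5, 97.9 and 92.8 FPKM in the knockout-labelled libraries. Its WT libraries spread more than the others did (80.8 ± 7.81 against 96.1 ± 2.88 FPKM, SD, n = 3 each, difference 0.25, adjusted p = 0.204). Pdia6 stood at 41.5, 40.4 and 44.9 FPKM in WT against 51.2, 49.2 and 46.9 FPKM (difference 0.21, adjusted p = 0.179). Pdia4 stood at 46.8, 50.2 and 49.8 FPKM in WT against 56.5, 52.5 and 52.8 FPKM (difference 0.14, adjusted p = 0.255). For these 4 isomerases, as for Calr, the groups did not overlap.

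The other 5 chaperone genes had an unadjusted p above 0.05 before any rescaling. Hsp90b1, the Hsp90 of the ER and 1 of the most abundant members at 121 ± 2.37 against 128 ± 3.73 FPKM (SD, n = 3 each), differed by 0.08 with no overlap of the groups, and Canx, calnexin, also differed by 0.08 with no overlap. Under the common total Hsp90b1 differed by 0.0016 and Canx by 0.0064. Members lying entirely above WT then numbered 9 in place of 18, with no share of all genes computed under that scaling. Dnajb11 (difference 0.04) and Hspa13 (difference 0.14) overlapped between the groups. Dnajb9, an IRE1-bound cochaperone and textbook XBP1 target, was the only chaperone with the lower mean in the knockout-labelled libraries, joined under the common total by Dnajb11 at -0.03. Dnajb9 stood at 66.9, 60.7 and 64.5 FPKM in WT against 53.5, 61.8 and 61.8 FPKM. Knockout replicate 1 was its lowest library and the other 2 lay inside the WT range, and the difference of -0.12 had a 95% interval of -0.29 to 0.06. Under the common total the Dnajb9 difference was -0.19, with an unadjusted p of 0.0462.

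**Figure D2:**
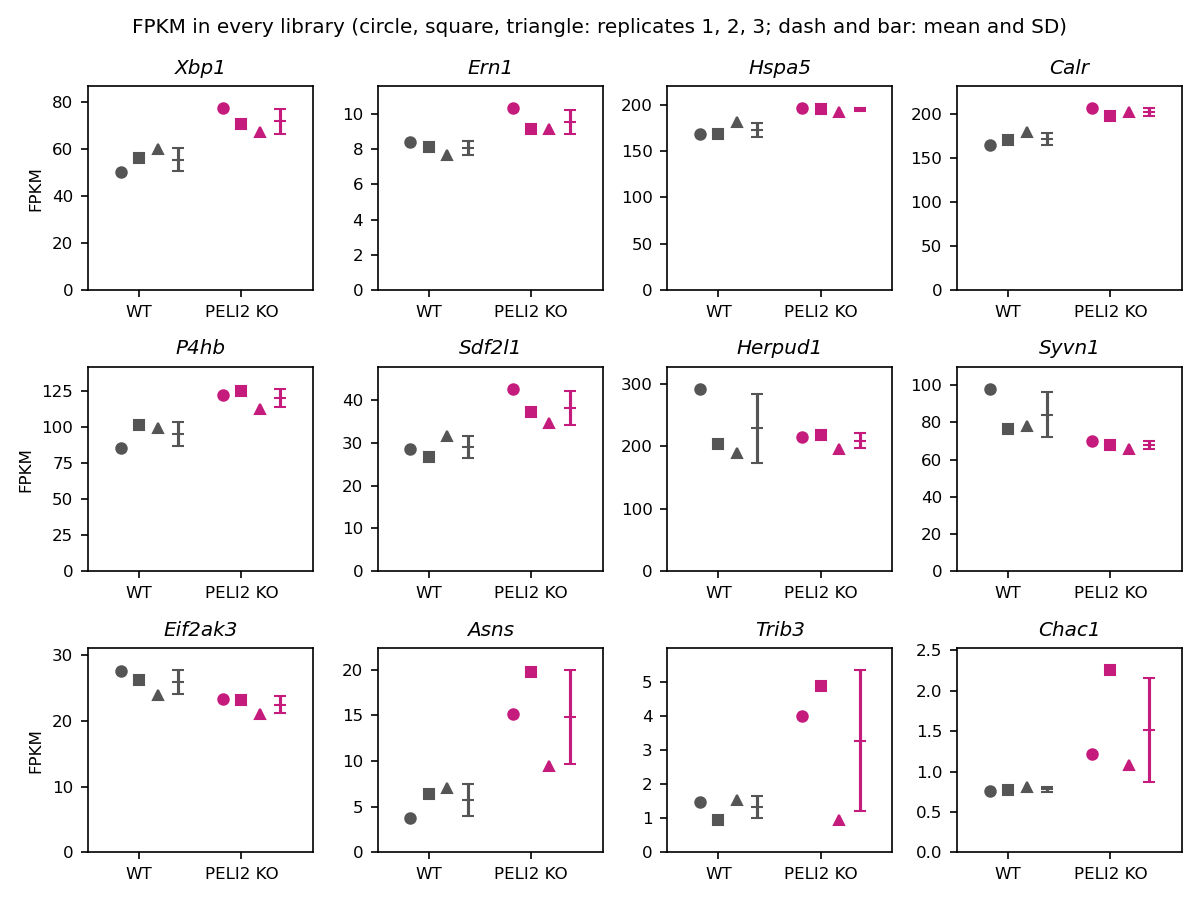
FPKM of 12 members in each of the 6 libraries, with each axis starting at 0; circle, square and triangle are replicates 1, 2 and 3 of a group, and the dash and bar are the mean and SD of 3 libraries. Xbp1, Ern1, Hspa5, Calr, P4hb and Sdf2l1 show groups that do not overlap, Herpud1 and Syvn1 show WT replicate 1 above the other libraries, and Asns, Trib3 and Chac1 are highest in knockout replicate 2.

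The degradation genes were mixed, with 3 of 5 higher in the mean and 1 at an unadjusted p under 0.05 in each direction. Their median difference of 0.05 became -0.02 under the common total, where that of all genes tested was -0.08. At that p threshold 9.2% of all genes tested were higher and 8.88% lower. Edem2, a mannosidase-like protein that marks glycoproteins for removal, stood at 17.3, 19.0 and 18.9 FPKM in WT and at 22.6, 23.0 and 19.2 FPKM in the knockout-labelled libraries (difference 0.22, SE 0.08, adjusted p = 0.240). Knockout replicate 3 was close to WT in this gene. Syvn1, the ubiquitin ligase HRD1 at the centre of the degradation channel, lay the other way, at 97.9, 76.4 and 77.8 FPKM in WT and at 69.9, 68.0 and 65.6 FPKM in the knockout-labelled libraries. All 3 knockout-labelled libraries were lower (84.0 ± 12.03 against 67.9 ± 2.16 FPKM, SD, n = 3 each, difference -0.30, SE 0.10, adjusted p = 0.220), but WT replicate 1 stood apart from the other 2 WT libraries, and without it the difference was -0.18. The Syvn1 difference was 0.13 with the granulocyte covariate. Syvn1 overlaps Mrpl49 on the opposite strand, whose mean was 30.6 FPKM in WT against 26.1 FPKM, and whether counting used strand is not given in the sources used here.

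Herpud1, a ubiquitin-like protein that brings together the HRD1 complex, was the most abundant degradation gene and varied more in WT than the other 4, at 291, 204 and 189 FPKM against 214, 217 and 196 FPKM in the knockout-labelled libraries. The groups overlapped, the difference was -0.10 (95% interval -0.49 to 0.28), and without WT replicate 1 it was 0.09. Edem1, a further mannosidase-like protein, stood at 34.8 ± 0.569 against 36.6 ± 2.74 FPKM and Sel1l, the partner of HRD1, at 11.6 ± 0.655 against 12.1 ± 1.401 FPKM (SD, n = 3 each), and both overlapped between the groups. Syvn1 and Sel1l act in 1 complex, and their means lay on opposite sides before any rescaling or covariate. They lay on the same side under the common total (Sel1l -0.02), with the granulocyte covariate (Syvn1 0.13) and with the plasma cell covariate (Sel1l -0.14).

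In the PERK branch the kinase had the lower mean and its distant targets the higher one. Eif2ak3, which encodes PERK, stood at 27.6, 26.2 and 24.0 FPKM in WT and at 23.3, 23.1 and 21.02 FPKM in the knockout-labelled libraries. The groups were apart by a small margin, with a difference of -0.20 (SE 0.07, adjusted p = 0.228), and with the granulocyte covariate the difference was -0.0017. Atf4 mRNA stood at 197, 196 and 200.2 FPKM in WT against 199, 215 and 206 FPKM, with overlap and a difference of 0.06 (95% interval -0.06 to 0.19). ATF4 is controlled mainly through translation, which these values do not measure. Ddit3, which encodes the cell-death factor CHOP, stood at 30.1, 27.6 and 29.7 FPKM in WT against 33.3, 32.7 and 28.6 FPKM, again with overlap (difference 0.11, 95% interval -0.06 to 0.28). It overlaps Mars on the opposite strand, at 21.3 against 23.8 FPKM. Ppp1r15a, the phosphatase subunit that reverses the phosphorylation of eIF2, was abundant and did not separate the groups (170.4 ± 14.5 against 179 ± 8.47 FPKM, SD, n = 3 each, difference 0.08).

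Asns, asparagine synthetase, had the largest difference of all 32 members. It stood at 3.80, 6.36 and 7.06 FPKM in WT and at 15.2, 19.8 and 9.51 FPKM in the knockout-labelled libraries. The groups did not overlap, with means of 5.74 ± 1.72 and 14.8 ± 5.15 FPKM (SD, n = 3 each, 2.59-fold) and a difference of 1.21 (SE 0.29, unadjusted p = 0.00461, adjusted p = 0.153). Knockout replicate 3 was nearer to the highest WT library than to knockout replicate 2. With the granulocyte covariate the Asns difference was 0.49, below those of Trib3 and Herpud1, and with the plasma cell covariate it was 0.54. Chac1, which breaks down glutathione, stood at 0.758, 0.772 and 0.815 FPKM in WT and at 1.21, 2.26 and 1.08 FPKM in the knockout-labelled libraries. The difference of 0.47 (SE 0.18, adjusted p = 0.252) was 0.27 without knockout replicate 2, and the lowest library held about 20.97 reads of this gene. Trib3, a pseudokinase that is a target of ATF4 and CHOP, stood at 1.49, 0.962 and 1.53 FPKM in WT and at 4.0002, 4.88 and 0.938 FPKM in the knockout-labelled libraries. Knockout replicate 3 was the lowest of all 6, so the groups overlapped, and the difference of 0.74 (SE 0.41, adjusted p = 0.386) was 1.23 without that library (adjusted p = 0.0959) and 0.43 without knockout replicate 2. For Trib3 it was 0.010 with the plasma cell covariate and 1.203 with the granulocyte covariate.

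The members differed among themselves in which libraries were highest and lowest. The counts that follow were not made over all genes tested, so they do not show a trait of the members alone. Knockout replicate 1 was the highest of the 6 libraries for 14 of the 32 members and for 9 of the 16 chaperones, and knockout replicate 2 for 9 and 4. Knockout replicate 3 was the highest for 1 member, a chaperone, and the lowest for 6. WT replicate 1 was the highest for 6 members and the lowest for 12, of which 8 were chaperones. In the PERK branch 4 of 7 genes, namely Atf4, Trib3, Chac1 and Asns, were highest in knockout replicate 2. Over the whole branch the mean log2 level stood 0.40 and 0.59 above the WT mean in knockout replicates 1 and 2 and 0.07 above it in replicate 3, while for the chaperones the same values were 0.19, 0.16 and 0.13. The branch mean rests mainly on Asns, Trib3 and Chac1, while Ddit3, Ppp1r15a, Atf4 and Eif2ak3 differed by 0.11, 0.08, 0.06 and -0.20. The median difference of the branch was 0.11, against 0.16 for the chaperones.

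**Figure D3:**
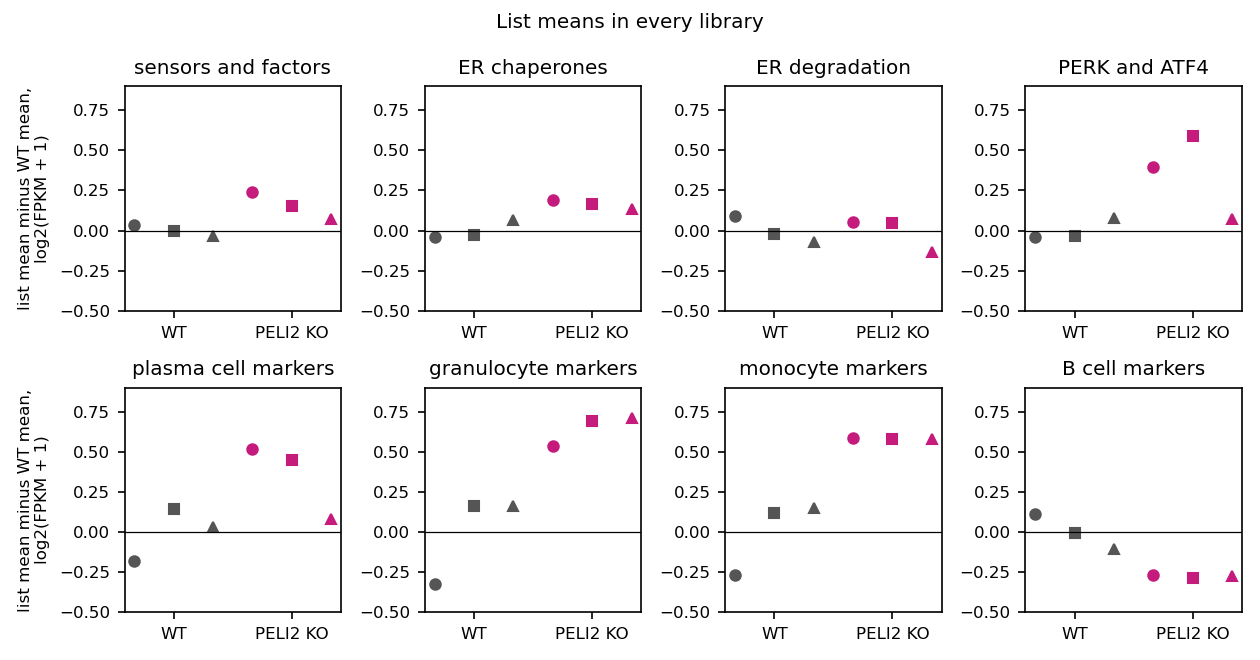
Mean log2(FPKM + 1) of 4 member roles and 4 marker lists in each library, less the mean of the WT libraries; circle, square and triangle are replicates 1, 2 and 3. The chaperones lie at 0.19, 0.16 and 0.13 in knockout replicates 1 to 3, the PERK and ATF4 branch at 0.40, 0.59 and 0.07, the plasma cell markers at 0.51, 0.45 and 0.08, and the granulocyte markers at 0.53, 0.69 and 0.71.

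Marker lists of other cells, none of which shares a gene with the members, were set beside these values. For the plasma cell list the mean stood 0.51, 0.45 and 0.08 above the WT mean in knockout replicates 1, 2 and 3, and at -0.18, 0.14 and 0.03 in WT replicates 1, 2 and 3. Its summed level ran from 1895 to 2859 FPKM in WT and from 2749 to 4553 FPKM in the knockout-labelled libraries, with 7 of 12 genes higher and 5 lower in the mean (4 and 5 at an unadjusted p under 0.05). Igha, the constant region of IgA, led it at 753, 1455 and 1230 FPKM in WT against 2390, 2053 and 1334 FPKM, so that knockout replicate 3 lay inside the WT range. Among granulocyte markers 11 of 16 were higher at an unadjusted p under 0.05 with a median difference of 0.43, and the list mean stood 0.53, 0.69 and 0.71 above the WT mean in knockout replicates 1, 2 and 3 and at -0.33, 0.16 and 0.16 in the WT replicates. The 9 monocyte markers all had a higher mean (8 at an unadjusted p under 0.05, median 0.54, summed 678 to 951 against 1017 to 1249 FPKM). The 10 erythroid markers did too (6, median 0.46, summed 9201 to 13422 against 13971 to 17845 FPKM), as did the 8 markers of plasmacytoid dendritic cells, which carry B220 themselves (7, median 0.33, summed 436 to 486 against 549 to 666 FPKM). Of 9 T and NK markers tested, 6 had a higher mean and 2 an unadjusted p under 0.05 (median 0.04, summed 94.4 to 114 against 112 to 139.6 FPKM), while for the B-cell list 7 of 10 were lower by that rule and 0 higher (median -0.34). By the same rule 9.2% of all genes tested were higher and 8.88% lower. No marker on these lists was at 0 in every library. Their part in the members' differences was not tested. The covariate fits above cannot test it, since the granulocyte list mean separated the groups (7.13 to 7.61 in WT, 7.98 to 8.16 in the knockout-labelled libraries). The plasma cell list mean overlapped between the groups only through knockout replicate 3.

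Other genes of the secretory pathway were taken from lists of their function, and 0 of them had an adjusted p under 0.05. Those that serve entry into the ER and glycan transfer lay mostly on the same side as the chaperones. Of all genes tested, 46.4% had a higher mean, and at an unadjusted p under 0.05 stood 9.2% higher and 8.88% lower. Of 16 genes of translocation into the ER, 13 had a higher mean and 9 were higher at an unadjusted p under 0.05, with 0 lower and a median difference of 0.17. The knockout-labelled libraries lay entirely above WT for 10 of the 16 and entirely below for 2, against 11.5% and 14.3% of all genes tested. The smallest p values belonged to the translocon-associated proteins Ssr4 (21.4 ± 1.74 against 27.7 ± 1.27 FPKM, difference 0.36) and Ssr1 (16.5 ± 0.528 against 19.7 ± 0.732 FPKM, difference 0.24) and the channel subunit Sec61b (43.5 ± 2.24 against 53.0 ± 2.08 FPKM, difference 0.28), each with an adjusted p of 0.142 (SD, n = 3 each). Of 15 tested genes of N-glycosylation and glycan trimming, 13 had a higher mean, 5 were higher at an unadjusted p under 0.05 and 0 lower, with a median of 0.11. Ddost (65.3 ± 4.19 against 81.6 ± 2.28 FPKM, difference 0.32, adjusted p = 0.142), Rpn2 (difference 0.24, adjusted p = 0.150) and Rpn1 (difference 0.20, adjusted p = 0.220), all subunits of the oligosaccharyltransferase, led it. Among 23 tested other folding and disulfide enzymes, 17 had a higher mean, 8 were higher at an unadjusted p under 0.05 and 0 lower (median 0.12). Sil1, a nucleotide exchange factor of BiP, stood at 11.7 ± 1.024 against 14.4 ± 1.14 FPKM, the sulfhydryl oxidase Qsox1 at 5.52 ± 0.449 against 7.06 ± 0.798 FPKM, and the isomerase Pdia5 at 3.22 ± 0.545 against 4.85 ± 1.06 FPKM (adjusted p between 0.189 and 0.214).

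The degradation, ATF4 and cytosolic chaperone lists follow. Of 20 other ER-associated degradation genes, 10 had a higher and 10 a lower mean (1 and 2 at an unadjusted p under 0.05, median 0.00). These 3 were Man1b1, a mannosidase (19.7 ± 0.420 against 21.8 ± 0.587 FPKM), Edem3, a relative of Edem1 (36.5 ± 5.53 against 29.3 ± 3.11 FPKM, difference -0.30), and Faf2 (8.86 ± 0.453 against 7.93 ± 0.330 FPKM, difference -0.14). Of 26 tested other ATF4 targets and eIF2 regulators, 17 had a higher mean, an unadjusted p under 0.05 was reached by 8 on the higher and 2 on the lower side, and the median was 0.09. Sesn2, a stress-induced inhibitor of mTORC1 signalling, stood at 7.49 ± 1.03 against 9.78 ± 0.755 FPKM (difference 0.35, adjusted p = 0.188), the asparaginyl-tRNA synthetase gene Nars at 41.4 ± 2.34 against 49.3 ± 4.03 FPKM (difference 0.24, adjusted p = 0.202), and Eif2ak2, the eIF2 kinase PKR, at 11.3 ± 0.770 against 9.39 ± 0.399 FPKM (difference -0.24, adjusted p = 0.174). Knockout replicate 2 was the highest library for 12 of these 26 genes and replicate 3 for 4. The list of cytosolic heat shock proteins, which answer unfolded protein outside the ER, also holds the mitochondrial Hspd1. It had 9 of 14 higher means, 1 gene on the higher and 0 on the lower side at an unadjusted p under 0.05 and a median of 0.02. That gene was the Hsp70 cochaperone Bag3 (1.93 ± 0.273 against 3.86 ± 0.242 FPKM, difference 0.73, adjusted p = 0.0908).

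**Figure D4:**
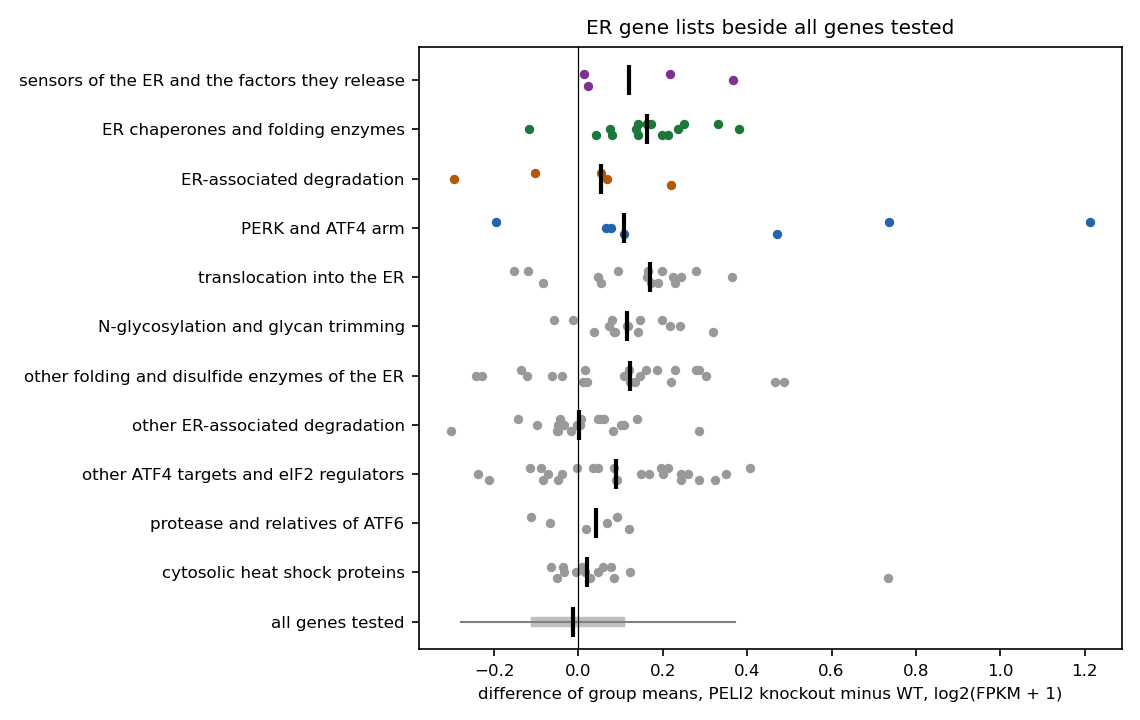
Differences of single genes (dots) and their median (bar) for the 4 member roles, the other ER and ATF4 lists and the cytosolic heat shock list, which also holds the mitochondrial Hspd1, in log2(FPKM + 1), PELI2 knockout minus WT. In the last row, for all 12953 genes tested, the thin line spans the 5th to 95th percentile and the thick line the 25th to 75th; medians run from 0.17 for translocation into the ER to 0.00 for the other degradation genes.

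The promoter elements can be set beside the values. Of the 8 members with an ERSE, 7 had the higher mean in the knockout-labelled libraries, 5 of them at an unadjusted p under 0.05, with a median difference of 0.16, and Syvn1 was the exception. Calr, Pdia6, Hspa5, Dnajc3 and Creld2 were those 5, and Canx and Hsp90b1 differed by 0.08 each. Of all 32 members, 28 had a higher mean and 16 were higher at that threshold, with a median of 0.14. For all genes tested the shares were 46.4% and 9.2%. A link between the element and the direction was not tested. The ERSE was also found in 29 genes outside the list, of which 6 were tested. Of these 6, 4 had a higher mean, 0 stood higher and 1 stood lower at an unadjusted p under 0.05, and the median difference was 0.08. Among them were Derl3, a degradation channel protein (7.70 ± 0.558 against 9.86 ± 2.76 FPKM, difference 0.29, adjusted p = 0.460), and Alg12, a mannosyltransferase of glycan assembly (7.27 ± 0.609 against 7.96 ± 0.917 FPKM, difference 0.11), and the lower gene was Pan2 (difference -0.15), all 3 named after their values were seen. Xbp1, Sdf2l1, P4hb and Pdia3, which had the largest differences among sensors and chaperones, had no exact match to the 4 elements in their windows, which says only that these letters are not there. Of the 4 members with the ATF4 core, Asns, Chac1 and Trib3 had the largest differences of all members, at 1.21, 0.47 and 0.74, while Herpud1 had -0.10. The match of Trib3 lies inside the transcript, 15 bases after the RefSeq start, so 3 members held the core before that start. This split depends on the annotation. By the gene positions in the deposited table the Trib3 match lies before the start and the Asns match inside the transcript. An element in a promoter window is a description of its letters, and binding was not measured.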

How the data were processed

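The authors deposited 1 table of FPKM values per gene for 6 libraries (poly(A) RNA, single-end reads of 50 bases, per the labels). Build GRCm38.p6 and the tools RSEM 1.2.12, HISAT2 2.0.4, DESeq2 1.4.5 and Bowtie2 2.2.5 appear, without roles, in the submitters' processing notes. The table holds no column of other samples. FPKM keeps no counts, so log2(FPKM + 1) was tested with limma 3.58.1 (R 4.3.3, linear fits with trended empirical Bayes variances, two-sided), on genes that reached an FPKM of 1 in 3 or more of the 6 libraries, WT against PELI2 knockout, 3 against 3, with Benjamini-Hochberg adjustment over all 12953 genes tested and a threshold of 0.05. A log2(FPKM + 1) difference understates the change of low genes. Depth came from genes with 1 transcript, whose low values are whole reads at one total per library (99.2 to 99.5% within 0.03 reads). The precision rests mainly on 3 libraries per group. The members and all gene lists were chosen with earlier results of these data known, and the members' values carry no test over the list. Described in full were members with an unadjusted p under 0.05, the sensors Ern1, Atf6 and Eif2ak3 and the factors Xbp1, Atf4 and Ddit3. Of each other pathway list up to 3 genes with the smallest p were named, and of marker lists at most 3 genes with the highest mean. The other values named in full, for Trib3, Herpud1 and Dnajb9, were chosen after they were seen. Motifs were searched in RefSeq promoter windows (GRCm38.p6). Alternatives changed the pseudocount, filter, scaling, variance model, weights, block, marker covariates, promoter window and libraries (1 rescaling was added after seeing the data). The models were tested on simulated data. The planned search for ER retrieval signals in the members' proteins was not run, since no protein sequences were used here.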

Additional observations from a re-analysis of the deposited data

How the results depend on the processing

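In all 19 alternative settings, 1 of them (rescaling to the mean library total with the same genes) chosen after seeing the data, 0 members were called, with the lowest adjusted p among members between 0.0959 (without PELI2 knockout replicate 3) and 0.881 (granulocyte covariate), and 19 members kept their sign wherever they were tested. Trib3 and Chac1 were tested in 18 of the 19, since the filter at FPKM of 5 left 30 members. Over all genes the 3 called higher became 1 with FPKM of 5 or more required, 0 with either marker covariate and 2 to 16 when 1 library was left out (16 without PELI2 knockout replicate 3), while the 0 called lower became 2 under the common total and 2 without a trend. Members higher at an unadjusted p under 0.05 numbered 7 under the common total, 3 with the granulocyte covariate, 0 with the plasma cell covariate and 10 to 18 when 1 library was left out (10 without PELI2 knockout replicate 1). Members lower numbered 0 with either covariate and 0 to 2 with 1 library left out. Of all genes tested, 20.2% were under 0.05 in either direction under the common total and 23.6% under the mean library total. The share was 5.43% with the granulocyte covariate, 6.6% with the plasma cell covariate and 12.6 to 19.5% with 1 library left out. Members with groups apart and higher numbered 9 under the common total, with no share of all genes computed there. The mean library total gave 7 members higher at an unadjusted p under 0.05, 9 apart and higher, a chaperone median of 0.090, a sensor median of 0.052 and turned signs for Atf6 (-0.046), Atf6b (-0.060), Dnajb11 (-0.030), Edem1 (-0.0056), Sel1l (-0.015) and Atf4 (-0.0092), so these shifts did not need the change of genes tested. The chaperone median was 0.092 under the common total, where the median over all genes tested was -0.077, and 0.15 to 0.21 with 1 library left out. The sensor median was 0.25 with the granulocyte covariate, and the degradation median -0.053 with the plasma cell covariate. When only the 250 bases before the RefSeq start were searched, ERSE-II matches went from 2 members to 1 and ATF4 core matches from 4 to 3, without Trib3. The sign turned under the common total for Atf6 (-0.049), Atf6b (-0.060), Dnajb11 (-0.031), Edem1 (-0.0058), Sel1l (-0.016) and Atf4 (-0.0093), and under quantile normalization for Atf6b (-0.0092). With the granulocyte covariate it turned for Hspa13 (-0.055), Canx (-0.12), Pdia3 (-0.0020), Herpud1 (0.60), Syvn1 (0.13) and Ppp1r15a (-0.057), and with the plasma cell covariate for Atf6 (-0.030), Dnajb9 (0.0023), Herpud1 (0.021), Edem1 (-0.053) and Sel1l (-0.14). With 1 library left out Atf6 ran from -0.038 to 0.078, Atf6b from -0.020 to 0.067 and Herpud1 from -0.22 to 0.087. The cause of the other shifts was not tested. The labels number the replicates 1 to 3 in both groups, and same-numbered libraries had correlated deviations of 0.10, 0.04 and 0.09, each library correlating best with its own number, which is a hint from the data and not from the design. With the replicate block 4 genes were called higher and 0 lower, and 0 members were called. The unadjusted p was then under 0.05 for 13 members with a higher and 2 with a lower mean, and for 19.3% of all genes tested. Leaving out a library leaves 2 in its group. At these depths only Chac1 and Trib3 stood under 5 FPKM in both group means.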
